A study of Mus musculus with 10 samples.

Results

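The transcripts examined were 10 genes of oxygen sensing: the alpha subunits Hif1a, Epas1 and Hif3a of the hypoxia-inducible factors (HIF), their partner Arnt, the prolyl hydroxylases Egln1, Egln2 and Egln3, the ubiquitin ligase subunit Vhl, and the target genes Vegfa and Adm. They were chosen by symbol as a named set from 16697 genes, and all 10 were found and passed the filter on low values. RNA sequencing had been done on 10 mouse liver libraries in 3 groups: normal liver (NL, n = 4), tumors raised in liver with c-MYC alone (c-MYC, n = 3) and tumors raised with c-MYC plus FOXO1AAA, a MYC-tagged FOXO1 that is constitutively active (c-MYC/FOXO1AAA, n = 3). The tumors came from hydrodynamic injection into the tail vein, which delivers plasmids mainly to hepatocytes, and a sleeping beauty transposase inserted the transgenes into the genome. Both transgenes were driven by the EF1α promoter, which is active in many cell types, and the c-MYC control tumors carried the empty pT3 vector in place of FOXO1AAA. NL mice were wild type, and the labels give the genotype WT for all samples. The strain is C57BL/6 in the sample characteristics and FVB/N in the study's methods, so it is not settled here. The age and sex of single mice are not given in the sources used here. The study's methods count the tumor samples as mice and the NL samples as livers, in the same numbers as the libraries here, whereas the sample labels do not tie a library to an animal.

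Cells sense oxygen through the stability of the HIF alpha subunits. When oxygen is present, the prolyl hydroxylases modify the alpha subunits, and VHL then marks them for degradation. When oxygen is low, the alpha subunits persist, pair with ARNT and switch on genes for glycolysis, blood vessel growth and erythropoiesis. In liver, Epas1 is known for its part in lipid handling and erythropoietin production. Much of this control acts on protein, which transcript levels do not measure.

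Levels are given in FPKM, fragments scaled to transcript length and library size. Each library held 13123717 to 20547746 reads in the listed genes. The factor by which the authors rescaled library size was 0.649 to 0.684 in NL, 1.256 to 1.295 in c-MYC and 1.454 to 1.502 in c-MYC/FOXO1AAA, so the scaling followed the groups. Foxo1 itself stood at 7.14 ± 0.532 FPKM (SD, n = 4) in NL, 5.63 ± 0.721 in c-MYC and 83.1 ± 12.8 in c-MYC/FOXO1AAA (n = 3 each), so the high libraries were those labelled with FOXO1AAA. Myc was at 11.2 ± 8.17 FPKM in NL, 0.771 ± 0.254 in c-MYC and 0.983 ± 0.118 in c-MYC/FOXO1AAA. Whether the Myc row counts reads of the injected c-MYC sequence is not given in the sources used here, so it does not check the c-MYC labels, and the direction of Myc is not read here.

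In c-MYC tumors against NL, 3 members rose (Hif1a, Hif3a and Egln3) and 2 fell (Epas1 and Vegfa), and 5 did not pass the test. The test was limma's treat for a change above 1.5-fold, with a Benjamini-Hochberg adjusted p under 0.05 over 14017 genes. Among all genes tested, 24.5% were higher and 23.6% were lower in this comparison. The libraries of the groups did not overlap for 8 of 10 members, beside 73.9% of all genes tested. The median log2 fold change was -0.31 over the members and 0.08 over all genes tested.

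In c-MYC/FOXO1AAA against c-MYC tumors, 0 members rose and 2 fell, Hif3a and Egln3. At an unadjusted p under 0.05 limma counted 0 higher and 2 lower as well. Of all genes tested, 15.9% were higher and 12.7% lower. The libraries did not overlap for 5 members (Hif1a, Hif3a, Vhl, Egln3 and Vegfa), beside 63.4% of all genes. The median log2 fold change was -0.18 over the members and 0.03 over all genes.

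In c-MYC/FOXO1AAA against NL, 0 members rose and 3 fell (Epas1, Arnt and Vegfa), with the same counts in limma at an unadjusted p under 0.05. Of all genes tested, 31.2% were higher and 26.6% lower. The libraries did not overlap for 4 members, beside 80.1% of all genes, and the median log2 fold change was -0.29 against 0.21 for all genes. The 3 comparisons share samples, so they are not independent of each other.

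The direction of small changes depended on the scaling. When every library was scaled to the same FPKM total in place of the authors' factors, the all-gene median of the log2 fold change moved to 1.01 in c-MYC against NL and to 1.31 in c-MYC/FOXO1AAA against NL. The share of calls that were higher went from 51.0% to 78.8% and from 54.0% to 79.5%. With that scaling, 4 members rose and 2 fell in c-MYC against NL, and 5 rose and 2 fell in c-MYC/FOXO1AAA against NL. The calls of Hif1a, Hif3a, Epas1, Egln3 and Vegfa given above also passed under it.

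**Figure D1:**
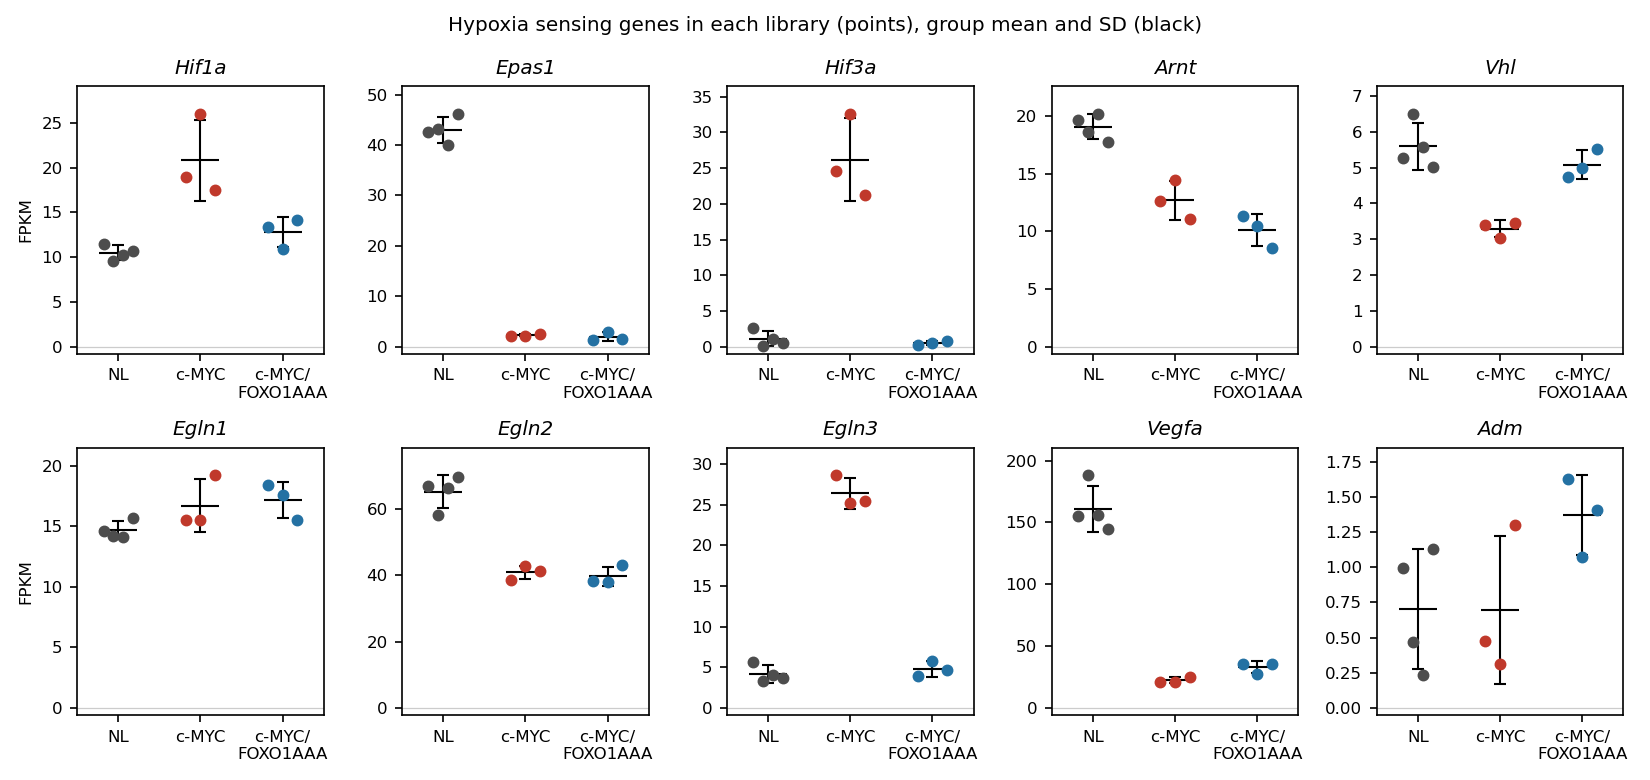
FPKM of the 10 members (one panel each, linear axis) in the NL, c-MYC and c-MYC/FOXO1AAA libraries. Points are libraries, and bars are the mean with SD. Hif3a and Egln3 are high in the 3 c-MYC libraries alone, at 21.2 to 32.6 and 25.2 to 28.6 FPKM, and Epas1 and Vegfa are high in the 4 NL libraries.

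Hif3a encodes the least studied alpha subunit, and it is known for splice forms of which some inhibit the other HIF factors. The gene lies at chr7:17031507-17062427 on the minus strand (GRCm38). It was measured at 2.54, 0.118, 1.06 and 0.541 FPKM in NL 1 to 4, at 24.6, 32.6 and 21.2 in c-MYC 1 to 3, and at 0.285, 0.484 and 0.759 in c-MYC/FOXO1AAA 1 to 3. All c-MYC libraries lay above all others, and NL and c-MYC/FOXO1AAA overlapped. The group means were 1.06 ± 1.05 (SD, n = 4), 26.2 ± 5.86 (n = 3) and 0.509 ± 0.238 FPKM (n = 3).

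Hif3a was 40.0-fold higher in c-MYC than in NL (log2 fold change 5.32, SE 0.84, limma adjusted p = 0.000427). Relative to c-MYC, c-MYC/FOXO1AAA was 54.6-fold lower (log2 fold change -5.77, SE 0.9, adjusted p = 0.000652). The adjusted p lay between 2.52e-06 and 0.00373 over 22 alternatives for the first comparison, and between 4.33e-06 and 0.00431 for the second. Against NL, c-MYC/FOXO1AAA differed by -0.45 on the log2 scale (SE 0.84, adjusted p = 0.882), and by 0.21 without NL 1.

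The 2.54 FPKM of NL 1 rested on 178 reads and the 0.118 FPKM of NL 2 on 6 reads, whereas the c-MYC libraries held 2495 to 3935 reads. Without NL 1 the NL mean was 0.572 FPKM, and the log2 fold change of c-MYC against NL was 5.98. Without NL 2 it was 4.51. The NL libraries ran in the order NL 1, NL 3, NL 4, NL 2 for Hif3a, and H19, an imprinted fetal liver RNA named after its values were seen, ran in the same order at 1403, 669, 329 and 88.4 FPKM. H19 was at 17907 ± 2105 FPKM in c-MYC and 8134 ± 1303 in c-MYC/FOXO1AAA, where Hif3a lay within its NL range. Its part in the NL values of Hif3a was not tested.

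The promoters of Hif3a and Egln3 are shown because these members rose and fell together across the groups. Each is the window of 250 bases before the transcription start of the RefSeq gene in GRCm38.p6, in the gene's direction, at chr7:17062428-17062677 and chr12:54203875-54204124, both on the minus strand. Capitals mark the hypoxia response cores ACGTG and GCGTG on either strand (read on the other strand as CACGT and CACGC).
Hif3a promoter: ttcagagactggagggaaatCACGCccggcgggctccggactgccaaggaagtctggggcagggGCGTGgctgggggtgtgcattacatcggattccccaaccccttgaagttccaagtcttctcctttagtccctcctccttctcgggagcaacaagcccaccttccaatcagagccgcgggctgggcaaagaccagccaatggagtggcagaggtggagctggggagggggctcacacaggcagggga
Egln3 promoter: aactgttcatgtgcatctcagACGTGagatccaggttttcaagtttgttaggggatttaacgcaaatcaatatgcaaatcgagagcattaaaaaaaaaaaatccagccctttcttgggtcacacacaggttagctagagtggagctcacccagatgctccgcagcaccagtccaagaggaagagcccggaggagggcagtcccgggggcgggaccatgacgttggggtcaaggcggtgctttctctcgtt
The Hif3a window held GCGTG on the opposite strand 230 bases before the start and on the gene's strand 186 bases before it. The Egln3 window held ACGTG 229 bases before the start. Of 32851 mouse promoter windows of this length, 16.6% held ACGTG and 28.2% held GCGTG on either strand.

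Promoters were found for 9 of 10 members, in 11 windows. ACGTG occurred in windows of 5 members (Hif1a, Egln1, Egln2, Egln3 and Vegfa), and GCGTG in those of 6 (Hif3a, Arnt, Egln1, Egln2, Vegfa and Adm). In Vegfa both lay only in window 2, at chr17:46025164-46025413 inside the gene, and window 1 before its start held neither. The only Hif1a window, at chr12:73907617-73907866, and window 2 of Egln2, at chr7:27165729-27165978, also lay inside the gene coordinates given below. By window, 5 of 11 held ACGTG and 7 of 11 held GCGTG, beside 16.6% and 28.2% of all windows. The E-box CACGTG, the letters that MYC and MAX bind and which contain ACGTG, occurred in 1 member, Hif1a, and in 6.02% of all promoters. The forkhead letters GTAAACA occurred in 0 of the 11 windows and in 3.17% of all promoters. A match is a description of letters and not a bound site, and letters outside these windows were not searched.

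Hif1a encodes the alpha subunit that drives the acute response to low oxygen in most tissues. It lies at chr12:73901375-73947530 on the plus strand. Its level was 11.5, 9.55, 10.2 and 10.7 FPKM in NL 1 to 4, 19, 26.0 and 17.5 in c-MYC 1 to 3, and 13.4, 10.9 and 14.1 in c-MYC/FOXO1AAA 1 to 3. The c-MYC libraries lay above both other groups, which overlapped each other. The rise in c-MYC against NL was 1.96-fold (log2 fold change 0.97, SE 0.15, limma adjusted p = 0.0291).

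The Hif1a call was lost without c-MYC 2, the highest library (log2 fold change 0.8, adjusted p = 0.131), and also without NL 2 (0.0661) or NL 3 (0.0552). Over 22 alternatives its adjusted p ranged from 8.42e-06 to 1. Between the tumor groups, c-MYC/FOXO1AAA minus c-MYC, it differed by -0.69 on the log2 scale (SE 0.16, adjusted p = 0.611). The exons of Hif1a overlap the antisense gene Gm15283, which was at a mean of 0.219, 0.294 and 1.27 FPKM in NL, c-MYC and c-MYC/FOXO1AAA. They also overlap exons of Gm49321, a protein-coding gene on the same strand that has no values here. The strand setting of the counting is not given in the sources used here.

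Epas1, also known as HIF2A, encodes the alpha subunit prominent in endothelium and hepatocytes. It lies at chr17:86753700-86833410 on the plus strand. NL 1 to 4 held 42.7, 43.3, 40.0 and 46.2 FPKM, c-MYC 1 to 3 held 2.16, 2.16 and 2.43, and c-MYC/FOXO1AAA 1 to 3 held 1.35, 2.96 and 1.49. Every tumor library lay below every NL library, and both tumor groups overlapped.

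Epas1 fell 19.1-fold in c-MYC (log2 fold change -4.26, SE 0.23, limma adjusted p = 1.52e-07) and 23.7-fold in c-MYC/FOXO1AAA (-4.57, SE 0.23, adjusted p = 5.13e-08) against NL. Between the tumor groups it differed by -0.31 (SE 0.25, adjusted p = 1). Some endothelial markers fell beside it, and others did not. In c-MYC against NL, 0 of 15 tested markers were higher (1 at an unadjusted p under 0.05 in limma) and 9 were lower. The summed level of the endothelial markers was 139 to 169 FPKM in NL, 69.2 to 104 in c-MYC and 81.9 to 109 in c-MYC/FOXO1AAA. None of the 16 listed markers was at 0 reads throughout a group. The c-MYC sum, with a mean of 88.4 FPKM, rested mostly on Egfl7. That marker went the other way, from a mean of 32.1 FPKM in NL to 58.6 in c-MYC. Pecam1 and Emcn also had higher means in c-MYC, at 5.7 and 3.16 FPKM beside 4.39 and 1.35 in NL. Cdh5 had a mean of 4.61 FPKM in both NL and c-MYC, and 26.0 in c-MYC/FOXO1AAA. Tek, Ptprb, Stab2, Clec4g and Rspo3 were under 1 FPKM in every tumor library and were tested only through NL. Without NL 1, NL 2 or c-MYC/FOXO1AAA 3, 1 endothelial marker was called higher, and equal FPKM totals gave 3 higher and 7 lower (median log2 fold change -0.66 in place of -1.59). Of all genes tested, 24.5% were higher and 23.6% lower in c-MYC against NL. Hepatocyte markers fell too, with 11 of 12 lower in c-MYC and sums of 93254 to 106731 FPKM in NL, 7202 to 10621 in c-MYC and 1468 to 2851 in c-MYC/FOXO1AAA. Their part in the Epas1 values was not tested, and in these bulk samples fewer cells of a type and less RNA per cell cannot be told apart.

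A different alpha subunit led the alpha transcripts in each of the 3 groups. As a share of the summed FPKM of Hif1a, Epas1 and Hif3a, which no scaling of libraries can alter, Epas1 took 78.8% ± 2.89 (SD, n = 4) in NL. In c-MYC the shares were 53.0% ± 1.28 for Hif3a, 42.3% ± 0.706 for Hif1a and 4.72% ± 1.17 for Epas1 (n = 3). In c-MYC/FOXO1AAA Hif1a took 83.8% ± 6.86, Epas1 12.9% ± 6.65 and Hif3a 3.3% ± 1.37 (n = 3).

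Hif3a was thus a minor transcript outside the c-MYC libraries. The lowest and highest shares of Hif3a were 51.5% and 53.8% in c-MYC, against 0.223% to 4.47% in NL and 1.9% to 4.64% in c-MYC/FOXO1AAA. The summed level was 54.6 ± 2.96 FPKM in NL, 49.3 ± 10.3 in c-MYC and 15.2 ± 1.0 in c-MYC/FOXO1AAA. These shares depend on the single transcript length that the authors used for each gene, and they are given with no test.

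**Figure D2:**
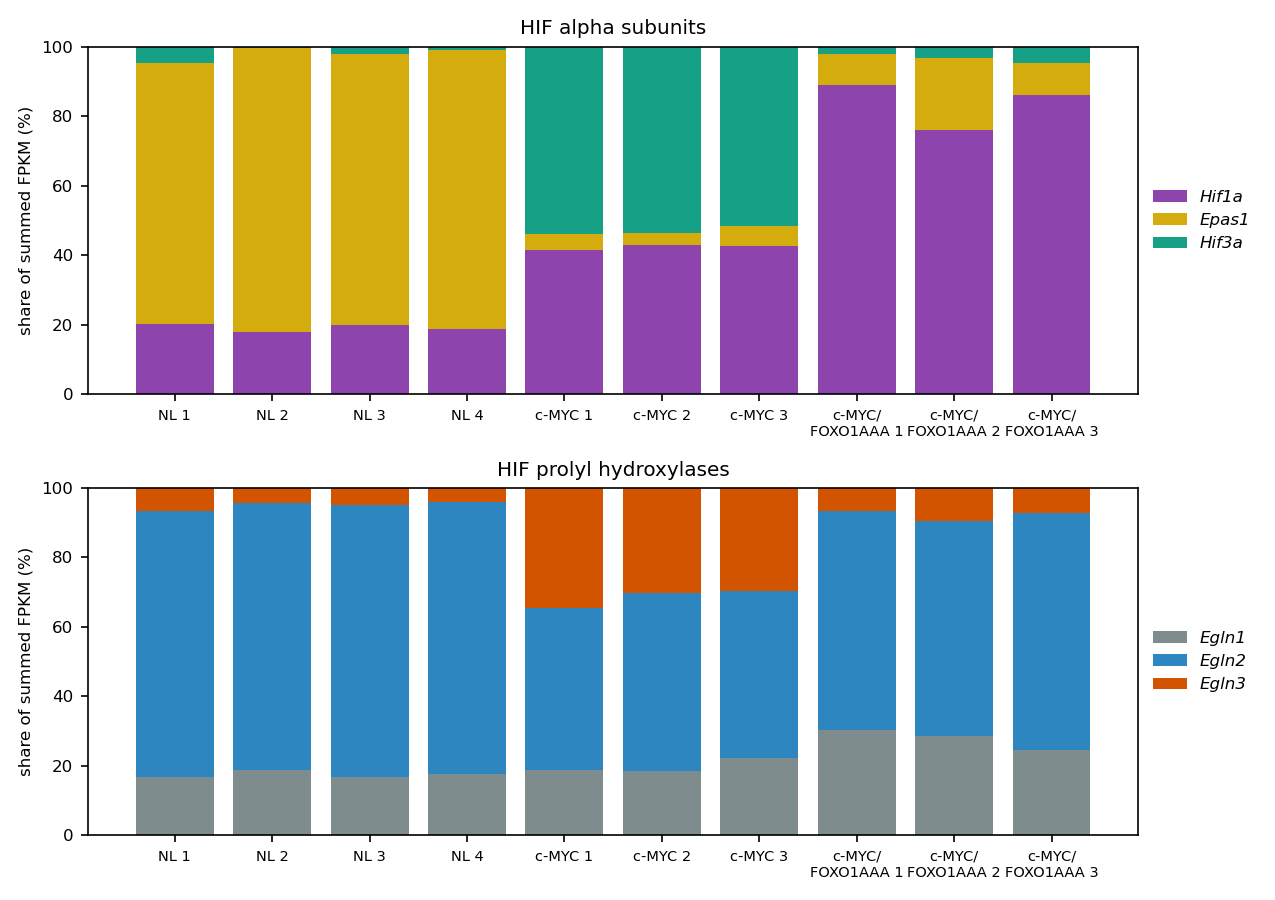
Shares in percent of the summed FPKM taken by each alpha subunit (Hif1a, Epas1, Hif3a) and each prolyl hydroxylase (Egln1, Egln2, Egln3), stacked to 100 for each of the 10 libraries. Epas1 leads in NL, Hif3a and Hif1a share the c-MYC libraries, and Hif1a leads in c-MYC/FOXO1AAA, while Egln3 rises from 4.95% in NL to 31.5% in c-MYC.

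Arnt encodes the common partner that every alpha subunit needs to bind DNA. It lies at chr3:95434388-95497240 on the plus strand. Its levels were 19.7, 18.6, 20.2 and 17.8 FPKM in NL 1 to 4, 12.6, 14.5 and 11.1 in c-MYC 1 to 3, and 11.3, 10.5 and 8.6 in c-MYC/FOXO1AAA 1 to 3. All tumor libraries lay below the NL libraries. The fall in c-MYC/FOXO1AAA against NL was 1.9-fold (log2 fold change -0.92, SE 0.13, limma adjusted p = 0.0196), and it was lost without c-MYC/FOXO1AAA 3 (-0.81, adjusted p = 0.0855). With the same FPKM total in each library the value was 0.17, and over all alternatives the adjusted p ran up to 1. For c-MYC against NL the log2 value was -0.59 (SE 0.13, adjusted p = 0.707).

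Vhl encodes the part of a ubiquitin ligase that recognises hydroxylated alpha subunits. It lies at chr6:113623959-113631633 on the plus strand. It stood at 5.26, 6.5, 5.58 and 5.03 FPKM in NL 1 to 4, at 3.4, 3.03 and 3.45 in c-MYC 1 to 3, and at 4.74, 4.99 and 5.52 in c-MYC/FOXO1AAA 1 to 3. The c-MYC libraries lay below both other groups, but the differences did not pass the test. The log2 fold change was -0.76 for c-MYC against NL (SE 0.14, limma adjusted p = 0.204) and 0.63 between the tumor groups (SE 0.15, adjusted p = 0.833).

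The prolyl hydroxylases mark the alpha subunits for VHL. Egln3, at chr12:54178981-54203860 on the minus strand, encodes PHD3, which is itself a target of HIF. It was at 5.72, 3.31, 4.01 and 3.64 FPKM in NL 1 to 4, at 28.6, 25.2 and 25.5 in c-MYC 1 to 3, and at 3.9, 5.84 and 4.62 in c-MYC/FOXO1AAA 1 to 3. The c-MYC libraries lay above all others, and NL and c-MYC/FOXO1AAA overlapped. Egln3 was 6.47-fold higher in c-MYC than in NL (log2 fold change 2.69, SE 0.2, limma adjusted p = 2.92e-06) and c-MYC/FOXO1AAA was 5.59-fold below c-MYC (-2.48, SE 0.21, adjusted p = 2.11e-05).

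Egln2, at chr7:27158658-27166802 on the minus strand, encodes PHD1 and was the most abundant hydroxylase transcript in every group. Its levels were 67.0, 58.2, 66.2 and 69.5 FPKM in NL 1 to 4, 38.7, 42.7 and 41.4 in c-MYC 1 to 3, and 38.3, 37.9 and 43.0 in c-MYC/FOXO1AAA 1 to 3. All tumor libraries lay below NL, but the log2 fold changes of -0.67 (SE 0.09, limma adjusted p = 0.318) and -0.71 (SE 0.09, adjusted p = 0.153) did not pass the test above 1.5-fold. Its exons overlap those of Cyp2t4 on the opposite strand.

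Egln1, at chr8:124908587-124949324 on the minus strand, encodes PHD2, the main oxygen sensor of most cells. It was at 14.6, 14.2, 14.1 and 15.7 FPKM in NL 1 to 4, at 15.5, 15.5 and 19.2 in c-MYC 1 to 3, and at 18.4, 17.6 and 15.5 in c-MYC/FOXO1AAA 1 to 3. The groups overlapped, with log2 fold changes of 0.18 (SE 0.11) in c-MYC and 0.23 (SE 0.11) in c-MYC/FOXO1AAA against NL, both at a limma adjusted p of 1.

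Summed FPKM of the hydroxylases was 84.1 ± 5.85 in NL, 84.1 ± 1.77 in c-MYC and 61.7 ± 1.35 in c-MYC/FOXO1AAA. Egln2 took 77.6% ± 0.938 of it in NL and 48.7% ± 2.3 in c-MYC, where Egln3 took 31.5% ± 2.7. In c-MYC/FOXO1AAA the shares were 64.4% ± 3.3 for Egln2, 27.9% ± 2.99 for Egln1 and 7.76% ± 1.59 for Egln3. Egln3 thus took a larger share in every c-MYC library than in any other library.

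**Figure D3:**
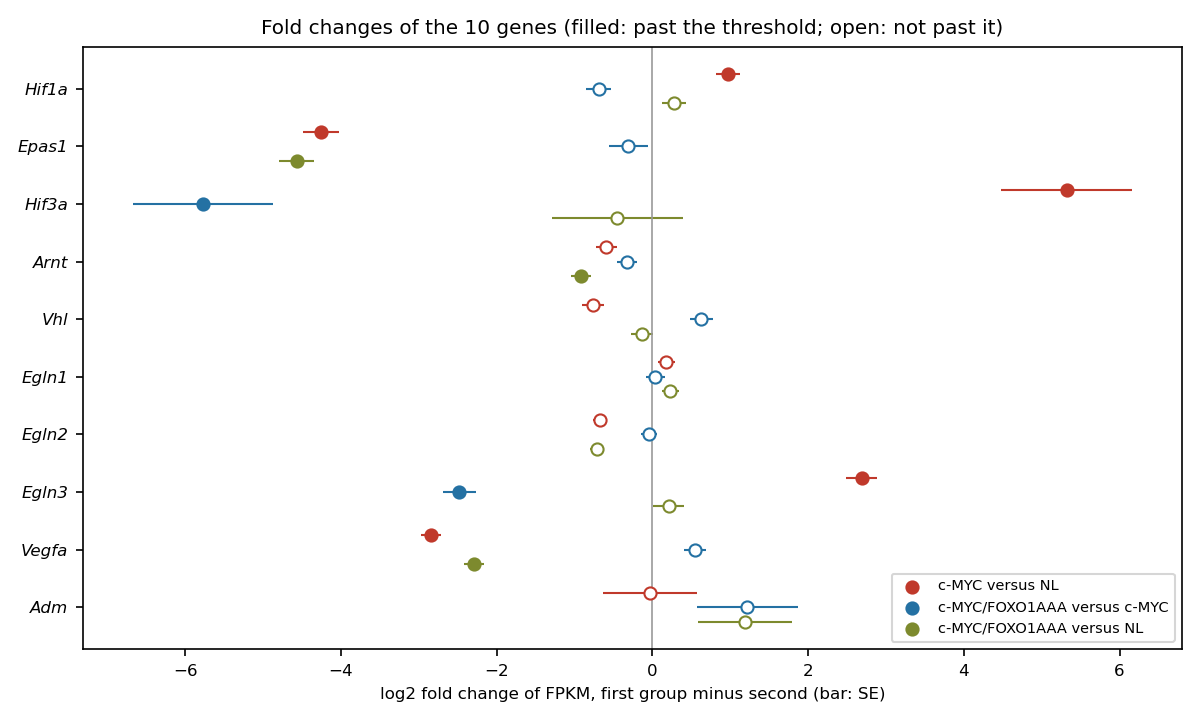
Log2 fold change with SE of the 10 members in c-MYC against NL, c-MYC/FOXO1AAA against c-MYC and c-MYC/FOXO1AAA against NL, from limma. Filled points passed the test, and the values run from -5.77 to 5.32, both for Hif3a.

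Vegfa encodes the main growth factor of blood vessels and is a classical HIF target. It lies at chr17:46016993-46032369 on the minus strand. NL 1 to 4 held 155, 188, 156 and 145 FPKM, c-MYC 1 to 3 held 20.9, 21.1 and 25.2, and c-MYC/FOXO1AAA 1 to 3 held 35.7, 27.6 and 35.7. The 3 groups did not overlap. Vegfa fell 7.18-fold in c-MYC (log2 fold change -2.84, SE 0.13, limma adjusted p = 7.32e-08) and 4.9-fold in c-MYC/FOXO1AAA (-2.29, SE 0.13, adjusted p = 3.64e-07) against NL. Between the tumor groups the log2 fold change was 0.55 (SE 0.14, adjusted p = 1). Its level against other genes rests on the length of 1107 bases that the authors used.

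Adm encodes adrenomedullin, a peptide that widens vessels and is induced by HIF. It lies at chr7:110627661-110629820 on the plus strand. Its levels were 0.997, 0.467, 0.233 and 1.13 FPKM in NL 1 to 4, 0.477, 0.314 and 1.3 in c-MYC 1 to 3, and 1.63, 1.07 and 1.41 in c-MYC/FOXO1AAA 1 to 3. They rested on 2 to 53 reads, and the groups overlapped. The log2 fold change was 1.22 in c-MYC/FOXO1AAA against c-MYC (SE 0.65, limma adjusted p = 0.452) and 1.19 against NL (SE 0.6, adjusted p = 0.265), and neither passed the test. With libraries scaled to the same FPKM total, the value against NL was 2.29 (adjusted p = 0.0119). Without c-MYC 3 the c-MYC mean went from 0.697 to 0.396 FPKM.

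The order of the levels changed with the groups. In NL it ran Vegfa, Egln2, Epas1, Arnt, Egln1, Hif1a, Vhl, Egln3, Hif3a and Adm, and of these neighbors Vhl and Egln3, and Hif3a and Adm, overlapped. In c-MYC it ran Egln2, Egln3, Hif3a, Vegfa, Hif1a, Egln1, Arnt, Vhl, Epas1 and Adm, where each neighbor from Egln3 to Egln1 overlapped the next. In c-MYC/FOXO1AAA it ran Egln2, Vegfa, Egln1, Hif1a, Arnt, Vhl, Egln3, Epas1, Adm and Hif3a, with overlaps of Hif1a with Arnt, Vhl with Egln3 and Epas1 with Adm.

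The 5 genes whose log2 FPKM followed Hif3a most closely over the 10 libraries were Bhlha15 (Pearson r = 0.995), Exoc3l4 (0.990), Slc36a2 (0.988), Mrpl16 (0.987) and Glis1 (0.982). Bhlha15 encodes a transcription factor of secretory cells, Slc36a2 an amino acid transporter, and Mrpl16 a mitochondrial ribosomal protein. Bhlha15 had a mean of 0.456 FPKM in NL, 15.0 in c-MYC and 0.24 in c-MYC/FOXO1AAA. All 5 of the 5 genes put the NL libraries in the same order as Hif3a. They were picked for correlation over all 10 libraries, NL included, so this shared order is in part a result of the choice. The libraries fall into groups, so these correlations mostly describe the step between them.

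Egln3 was followed most closely by Bspry (r = 0.993), Unc5b (0.990), Gdf15 (0.989), Abcb8 (0.989) and Plekha7 (0.989). Unc5b encodes a netrin receptor, Gdf15 a stress-induced cytokine and Abcb8 a mitochondrial transporter. Gdf15 had a mean of 1.78 FPKM in NL, 11.4 in c-MYC and 2.06 in c-MYC/FOXO1AAA. In 2 of the 5, which were picked in the same way, the NL libraries had the same order as in Egln3.

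**Figure D4:**
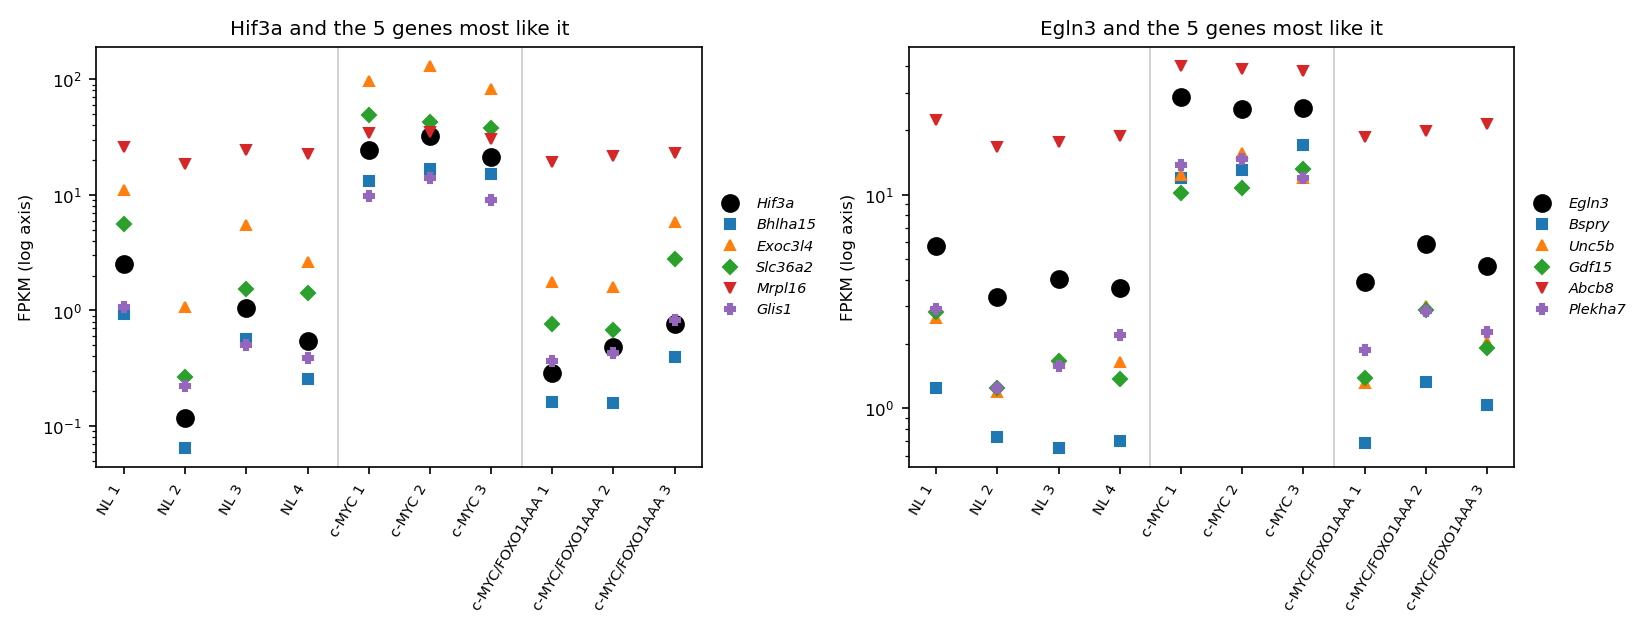
FPKM on a log axis of Hif3a and Egln3 and of the 5 genes most correlated with each, by library. Each symbol is a gene, and every gene is higher in the 3 c-MYC libraries than in all others.

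A further list held genes of oxygen sensing and HIF regulation. They were co-factors, hydroxylases, ubiquitin ligase subunits and others such as Ado, Kdm5a, Kdm6a, Hsp90ab1 and Rack1. The list pools genes that raise HIF activity with genes that lower it. In c-MYC against NL, 9 of 19 tested genes were higher and 0 lower (0 at an unadjusted p under 0.05 in limma), with a median log2 fold change of 0.81. With 1 library left out at a time, 6 to 9 were higher. Over all genes tested, 24.5% were higher and 23.6% lower, with a median of 0.08, and no list was tested against such shares. P4htm changed most, from 0.0643 to 0.556 FPKM in NL, with 0 reads in its lowest library, to 1.36 to 2.34 in c-MYC. Its log2 fold change was 2.79 (limma adjusted p = 0.0069), and c-MYC/FOXO1AAA held 3.44 to 4.56 FPKM. Rack1, a scaffold protein that promotes HIF degradation, went from 320 to 410 FPKM in NL to 966 to 1187 in c-MYC (log2 fold change 1.56, limma adjusted p = 1.6e-05). Cited4, which competes for a HIF co-activator, went from 1.08 to 1.47 up to 3.15 to 4.1 FPKM (1.49, adjusted p = 0.00501).

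Between the tumor groups, 1 gene of that list was higher and 3 were lower. The median was 0.08, or 0.17 without c-MYC 2 or without c-MYC/FOXO1AAA 2, and -0.01 with equal medians. Cited2, a HIF-induced inhibitor of HIF, rose from 47.5 to 63.7 FPKM in c-MYC to 236 to 341 in c-MYC/FOXO1AAA (log2 fold change 2.38, limma adjusted p = 4.99e-06). Cited4 fell to 0.175 to 0.258 FPKM (-3.97, adjusted p = 1.78e-06). Siah2, a ubiquitin ligase that acts on the prolyl hydroxylases, fell to 3.07 to 4.98 FPKM (-1.37, adjusted p = 0.00274), and Cul2, the scaffold of the VHL ligase, to 10.3 to 11.3 FPKM (-0.93, adjusted p = 0.017). Hif1an, the asparagine hydroxylase that blocks HIF activity, had means of 7.47, 6.18 and 6.53 FPKM in NL, c-MYC and c-MYC/FOXO1AAA and passed no test. Against NL, c-MYC/FOXO1AAA had 10 genes of the list higher and 2 lower, with a median of 0.94. Scaled to equal FPKM totals, 14 rose and 0 fell in c-MYC, and 17 rose and 1 fell in c-MYC/FOXO1AAA. Over all genes tested, 15.9% were higher and 12.7% lower between the tumor groups (median 0.03). In c-MYC/FOXO1AAA against NL these shares were 31.2% and 26.6% (median 0.21).

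Glycolytic HIF targets were higher in c-MYC than in NL for 9 of 18 genes and lower for 1, with a median log2 fold change of 0.98. Hk2, the hexokinase of many tumors, went from 0.118 to 0.76 FPKM in NL to 6.58 to 12.1 in c-MYC (log2 fold change 4.7, limma adjusted p = 3.83e-05). Pkm, a pyruvate kinase gene whose isoforms are not told apart here, went from 8.64 to 26.9 up to 109 to 355 FPKM (3.83, adjusted p = 4.04e-05). Aldoc, an aldolase, was the gene that fell, from 55.9 to 72.9 down to 14.7 to 16.9 FPKM (-2.02, adjusted p = 1.16e-06). Without c-MYC 3, 2 genes of the list were lower. The shares over all genes tested were 24.5% higher and 23.6% lower, with a median of 0.08.

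Between c-MYC/FOXO1AAA and c-MYC, 2 glycolytic targets were higher and 1 lower, with a median of 0.06 that ran from -0.02 without c-MYC 2 to 0.17 without c-MYC 3, and was 0.03 without c-MYC/FOXO1AAA 2. Slc2a3, a glucose transporter, rose from 0.0969 to 0.154 FPKM to 4.63 to 6.5 (log2 fold change 5.6, limma adjusted p = 1.52e-06). It was under 1 FPKM in every NL and c-MYC library and was tested only through c-MYC/FOXO1AAA. The call of the other, Pkm (1.76, adjusted p = 0.0438), is close to the threshold, and leaving out NL 3, NL 4, c-MYC 2, c-MYC/FOXO1AAA 2 or c-MYC/FOXO1AAA 3 left 1 call. Against NL, c-MYC/FOXO1AAA had 11 higher and 1 lower, with a median of 1.46. Under the same FPKM total 14 were higher in c-MYC against NL, and 4 between the tumor groups. The all-gene shares were 15.9% higher and 12.7% lower between the tumor groups (median 0.03), and 31.2% and 26.6% against NL (median 0.21).

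Among 30 other HIF targets tested, 10 were higher and 9 lower in c-MYC against NL, with a median log2 fold change of 0.5, or 0.11 without c-MYC 3. Beside this, 24.5% of all genes tested were higher and 23.6% lower, with a median of 0.08. Ndrg1, a stress-induced gene, went from 2.5 to 6.9 FPKM in NL to 30.9 to 54.0 in c-MYC (3.33, limma adjusted p = 1.57e-05). Insig2, a brake on cholesterol synthesis, fell from 72.4 to 91.1 to 9.58 to 10.2 FPKM (-3.04, adjusted p = 2.69e-08). Between the tumor groups, 13 were higher and 1 lower, with a median of 0.62. Plod2, a collagen lysyl hydroxylase, rose from 0.0918 to 0.344 to 12.3 to 17.6 FPKM (6.25, adjusted p = 9.46e-06). Plod2 and Bhlhe41 were under 1 FPKM in every NL and c-MYC library and were tested only through c-MYC/FOXO1AAA. The count of 13 thus partly reflects the filter. Bnip3, a mitophagy receptor, was the gene that fell (-1.08, adjusted p = 0.0203), and that count was 0 without c-MYC 3 or c-MYC/FOXO1AAA 2 and 2 without c-MYC 2. Against NL, c-MYC/FOXO1AAA had 17 higher and 5 lower, with a median of 1.37. The same FPKM total gave 17 higher and 6 lower in c-MYC, and 24 higher and 3 lower in c-MYC/FOXO1AAA. All genes tested gave 15.9% higher and 12.7% lower between the tumor groups (median 0.03), and 31.2% and 26.6% in c-MYC/FOXO1AAA against NL (median 0.21).

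Other genes of the VEGF family and its receptors were lower in c-MYC than in NL for 4 of 6 tested and higher for 0 in limma (0 at an unadjusted p under 0.05), with a median log2 fold change of -1.99. Without c-MYC 1, 1 was higher, and with the same FPKM total in each library 2 were higher and 2 lower. Flt4 was under 1 FPKM in every tumor library and was tested only through NL. Over all genes tested, 24.5% were higher and 23.6% lower in this comparison. Kdr, the main receptor of VEGFA, went from 5.67 to 6.49 FPKM in NL to 1.47 to 2.0 in c-MYC, and to 0.712 to 1.47 with FOXO1AAA. Against NL its log2 fold changes were -1.79 (limma adjusted p = 0.000929) and -2.69 (adjusted p = 1.16e-05), and the difference between the tumor groups did not pass the test (-0.9, adjusted p = 0.348). Nrp1, a co-receptor, fell to 1.21 to 1.77 FPKM in c-MYC from 23.4 to 33.9 in NL (-4.37, adjusted p = 9.46e-09) and rose against c-MYC in c-MYC/FOXO1AAA, at 8.33 to 8.54 FPKM (2.54, adjusted p = 4.08e-06). Flt1 did not pass the filter on low values, at 0.241 to 1.05 FPKM. Relative to c-MYC, c-MYC/FOXO1AAA had 2 of the list higher and 0 lower (4 and 0 at an unadjusted p under 0.05 in limma), with a median of 1.16, and 1 lower without c-MYC/FOXO1AAA 3. Relative to NL it had 2 higher and 3 lower, with a median of -0.87, which was -0.55 without c-MYC/FOXO1AAA 2 and 0.23 with the same FPKM total. The all-gene shares were 15.9% higher and 12.7% lower between the tumor groups, and 31.2% and 26.6% against NL.

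The adrenomedullin list holds the enzyme Pam, receptors and co-receptors, and the related ligand Adm2. In c-MYC/FOXO1AAA, 5 of its 6 tested genes were higher against each other group, and 0 were lower in limma, also at an unadjusted p under 0.05. Their median log2 fold change was 2.99 against c-MYC and 3.01 against NL. Ackr3 was under 1 FPKM in every NL and c-MYC library and was tested only through c-MYC/FOXO1AAA. All genes tested were higher for 15.9% and lower for 12.7% against c-MYC, and for 31.2% and 26.6% against NL. Ramp1, a co-receptor, was at 2.5 to 4.06 FPKM in NL, 0.326 to 0.715 in c-MYC and 26.1 to 33.2 in c-MYC/FOXO1AAA (log2 fold change 5.93 against c-MYC, limma adjusted p = 1.29e-07). Pam, the enzyme that amidates the peptide, was at 4.6 to 6.11, 1.29 to 1.64 and 35.1 to 46.8 FPKM (4.79, adjusted p = 2.6e-08). The receptor Calcrl (2.09, adjusted p = 0.000972) and its co-receptor Ramp2 (1.74, adjusted p = 0.000276) also rose against c-MYC. Calcrl did not pass the test against NL (0.68, adjusted p = 0.522), where Adm2 was among the 5 (3.85, adjusted p = 4.81e-05), and Adm2 did not pass against c-MYC (0.01, adjusted p = 1). In c-MYC against NL, 1 gene of this list was higher and 3 were lower, with a median of -0.64, and libraries scaled to equal FPKM totals gave 3 higher and 2 lower. The all-gene shares there were 24.5% higher and 23.6% lower.

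Most markers of stellate cells and fibroblasts moved with these genes. Lrat stayed low in both tumor groups, with means of 3.85, 0.0967 and 0.278 FPKM in NL, c-MYC and c-MYC/FOXO1AAA. Des and Acta2 had means of 62.7 and 64.6 FPKM in c-MYC/FOXO1AAA, where muscle markers rose too. These bulk values cannot assign them to a single cell type. Between the tumor groups, 7 of the 10 stellate and fibroblast markers were higher in c-MYC/FOXO1AAA and 0 lower (9 and 0 at an unadjusted p under 0.05 in limma). Their summed level was 88.6 to 112 FPKM in NL, 16.1 to 49.7 in c-MYC and 480 to 505 in c-MYC/FOXO1AAA. Skeletal muscle markers, with 5 of 6 tested higher, summed to 1.46 to 2.27, 3.73 to 8.62 and 341 to 458 FPKM, and Myog and Myod1 had 0 reads in all NL and c-MYC libraries. Most tested muscle markers, these genes among them, were under 1 FPKM in those libraries and passed the filter only through c-MYC/FOXO1AAA. Myh1 and Myh4 did not pass it, so the count of 5 of 6 was largely set by the filter. The tumor groups differed by 5 higher and 0 lower of 15 endothelial markers, or by 3 higher and 1 lower without c-MYC/FOXO1AAA 3. Between these groups 15.9% of all genes tested were higher and 12.7% lower. Quantile normalization gave 4 endothelial markers higher and 3 lower, and turned their median log2 fold change from 0.51 to -0.44. The part of these cells in the adrenomedullin and HIF target values was not tested.

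**Figure D5:**
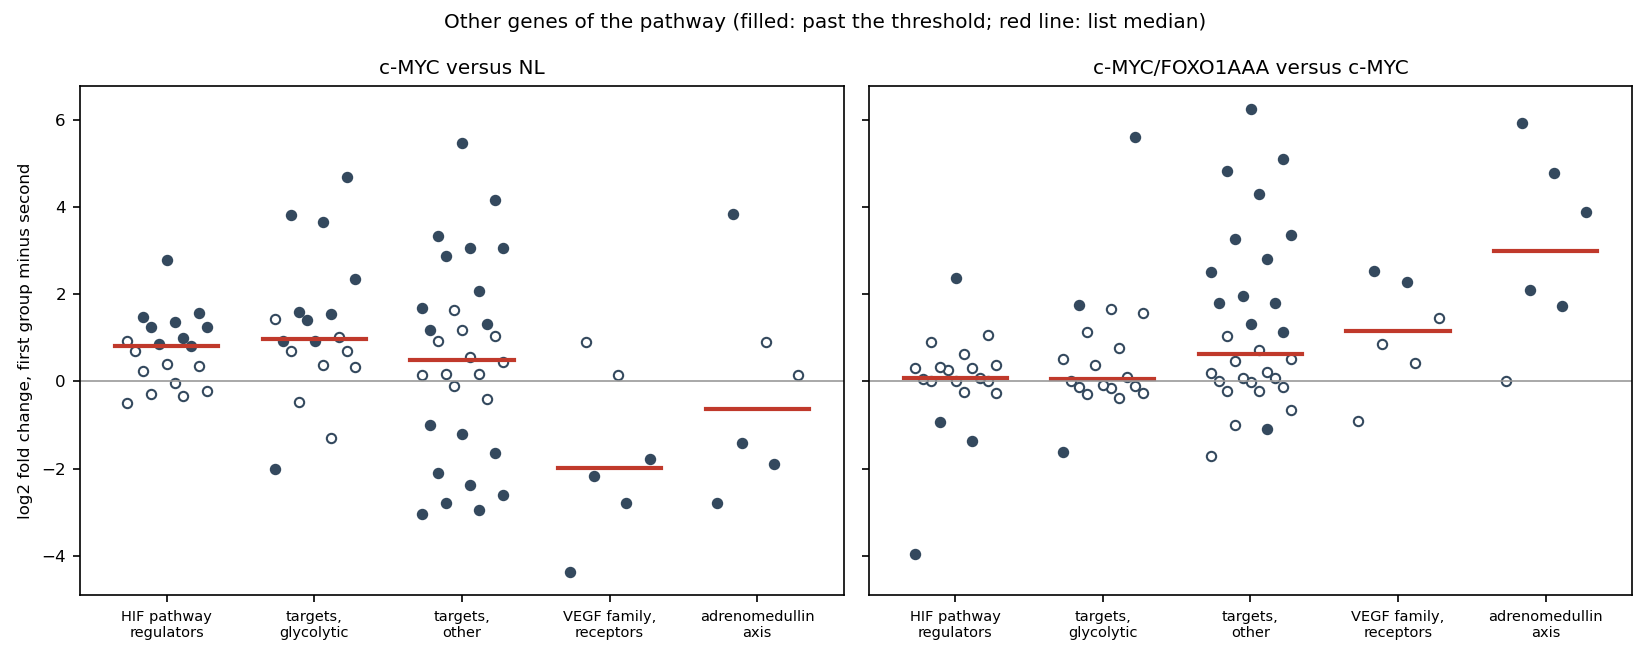
Log2 fold changes of the tested genes of the lists of other HIF pathway genes in c-MYC against NL (left) and c-MYC/FOXO1AAA against c-MYC (right). Each point is a gene, filled where it passed the test, and red lines are list medians, which are lowest for the VEGF list on the left (-1.99) and highest for the adrenomedullin list on the right (2.99).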

How the data were processed

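RNA from 10 mouse liver samples was sequenced, and groups and replicate numbers were taken from the sample titles. The deposited table holds log2 FPKM, which the authors computed in R from reads counted by gene, with a prior count added before the logarithm and their own scaling factors per library. The submitters' processing notes name FastQC 0.11.7 and the build GRCm38. The aligner and counter are not given in the sources used here. Of 17069 entries, 372 have no symbol and no values and were left out. Whole reads were recovered from the floor of the log scale, only for depth and for the reads of members and of genes in the lists.

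The 14017 genes that reached an FPKM of 1 in 3 or more libraries were fitted with limma 3.58.1 (R 4.3.3) on the deposited log2 values of all 10 libraries. A gene low elsewhere could pass this filter through 1 group alone, such as Slc2a3, Plod2, Bhlhe41, Ackr3 and Cd79a through c-MYC/FOXO1AAA. Genes that passed through NL alone included Tbx3, Slc1a2, Rhbg, Stab2, Clec4g and Flt4. Counts that include such genes partly reflect the filter. The function treat, with trend and robust estimation, tested, 2-sided, whether a change exceeded 1.5-fold, with Benjamini-Hochberg adjustment. The study's count test was not used because the deposited values are not counts, and fold changes of low genes are understated by the prior count. The script was tested on simulated data. FPKM means are 2 to the power of the deposited values, and levels between genes rest on 1 transcript length per gene.

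The members and gene lists were chosen with earlier results of these data known. All 10 members are named. From each list and comparison at most 3 called genes per direction may be named, plus Hif1an and the receptors of VEGFA and adrenomedullin, and for Hif3a and Egln3 the 5 most correlated genes. Arnt2, Car9 and Epo were not analysed here. Alternatives covered the pseudocount, filter, scaling, threshold, variance model, samples and replicate block.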

Additional observations from a re-analysis of the deposited data

How the results depend on the processing

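Over 654 repeats of the members' log2 fold changes, 612 kept their direction and side of the threshold, 13 passed it newly, 7 no longer passed and 22 changed sign. With no fold threshold, 8 members passed in c-MYC against NL (10432 genes), and 5 in c-MYC/FOXO1AAA against c-MYC (7688 genes), since the limit itself was removed. With a mean FPKM of at least 5, which tests fewer genes, 2280 genes passed in c-MYC/FOXO1AAA against c-MYC and 5211 against NL, and Vhl and Adm had no value. With the same FPKM total, 7 members passed in c-MYC/FOXO1AAA against NL, and signs changed to 0.33 for Arnt, 0.17 for Vhl, 0.26 for Egln2 and 0.9 for Adm in c-MYC against NL, to 0.13 for Egln2 in c-MYC/FOXO1AAA against c-MYC, and to 0.65 for Hif3a, 0.17 for Arnt, 0.96 for Vhl and 0.38 for Egln2 in c-MYC/FOXO1AAA against NL. Quantile normalization gave 0.25 for Adm in c-MYC against NL, 0.17 for Egln2 in c-MYC/FOXO1AAA against c-MYC and -0.07 for Egln3 in c-MYC/FOXO1AAA against NL, and the equal median gave -0.04 for Egln1 in c-MYC/FOXO1AAA against c-MYC. Leaving out 1 library, Adm in c-MYC against NL ranged from -0.61 to 0.41 (0.22 without NL 1, 0.28 without NL 4, 0.11 without c-MYC 1), Egln1 in c-MYC/FOXO1AAA against c-MYC from -0.01 to 0.15, and Hif3a in c-MYC/FOXO1AAA against NL from -1.26 to 0.21, the latter without NL 1. The cause was not tested. Replicate numbers showed no sign of pairing, as same-numbered deviations from the group means correlated between -0.04 and 0.027. Pairs with different numbers ran from -0.072 to 0.07, so these values cannot establish that the samples were unpaired. With the replicate block, Hif1a in c-MYC against NL had an adjusted p of 0.0758, Adm a log2 fold change of 0.28, and 3252 genes were higher and 3155 lower in that comparison. A threshold of 2-fold ended the calls of Hif1a and Arnt (adjusted p = 1 for both). Adm rested on 2 to 53 reads a library and Hif3a in NL on 6 to 178.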

Other observations

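Other cell markers were examined beside the oxygen sensing genes. All genes tested were higher for 24.5% and lower for 23.6% in c-MYC against NL. The shares were 15.9% and 12.7% in c-MYC/FOXO1AAA against c-MYC, and 31.2% and 26.6% against NL. Pericentral hepatocyte markers, the genes of the zone that normally has the least oxygen, were lower for 9 of 9 in c-MYC against NL, with a median log2 fold change of -5.76. Their summed level was 8324 to 10774 FPKM in NL, 94.9 to 131 in c-MYC and 122 to 164 in c-MYC/FOXO1AAA. Tbx3, Slc1a2 and Rhbg were under 1 FPKM in every tumor library and were tested only through NL. The count of 9 of 9 thus partly reflects the filter. In c-MYC/FOXO1AAA against c-MYC, 4 of the 9 were higher and 0 lower in limma (the same at an unadjusted p under 0.05), and without c-MYC/FOXO1AAA 2 the count was 2. Of 12 hepatocyte markers, 2 were higher and 9 lower in that comparison, and 12 were lower against NL.

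Of 4 erythroid markers tested, 4 were lower in each tumor type against NL, and their sum was 1117 to 2218 FPKM in NL, 131 to 234 in c-MYC and 215 to 532 in c-MYC/FOXO1AAA. For c-MYC/FOXO1AAA that count was 1 of 4 with libraries scaled to the same FPKM total and 2 of 4 with quantile normalization. Macrophage markers were higher for 1 and lower for 3 of 10 in c-MYC against NL, and higher for 1 and lower for 5 in c-MYC/FOXO1AAA against NL. Equal FPKM totals turned the balance in c-MYC to 6 higher and 2 lower, and gave 1 higher and 2 lower in c-MYC/FOXO1AAA. Cholangiocyte markers were higher for 2 and lower for 1 of 5 in c-MYC against NL, and 2 were lower without NL 2 or without c-MYC 3. Lymphocyte markers were represented by 2 tested genes, of which 1 was higher in c-MYC/FOXO1AAA against either group. That gene, Cd79a, was under 1 FPKM in every NL and c-MYC library and was tested only through the c-MYC/FOXO1AAA libraries.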
